A study of Homo sapiens with 14 samples.

Results

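The AKR1 aldo-keto reductases were followed in UM1, a cell line from a squamous cell carcinoma of the human tongue, by taking every row of the deposited RNA-seq tables whose gene name was AKR1A1, AKR1B1, AKR1B10, AKR1B15, AKR1C1, AKR1C2, AKR1C3 or AKR1E2. Of these 8 genes, 7 had a row in both tables, out of 14951 genes that the tables share, and AKR1E2 was not analysed here. The genes were chosen by family name together with the measured rise of AKR1B10 in both experiments, so the change of AKR1B10 is given as a description with no test, and the other members were tested in a fit over all genes of each table. The first experiment set 2 libraries of cells with a short hairpin against PRMT5 (shPRMT5) against 2 libraries of cells with a hairpin against GFP (shGFP). The second set 3 libraries of cells overexpressing ΔNp63α against 3 libraries with the empty vector. PRMT5 places symmetric dimethyl marks on arginine, and ΔNp63α is the main TP63 isoform of basal squamous cells. All 10 libraries come from the same line, so differences between people are not sampled, and 4 CUT&Tag samples of the series were not analysed here.

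AKR1 enzymes are small soluble proteins that use NADPH to reduce aldehydes and ketones to alcohols. AKR1A1 and AKR1B1 handle sugar-derived and other small aldehydes, AKR1B10 reduces retinal and lipid aldehydes, and the AKR1C enzymes reduce ketone groups of steroids and prostaglandins. AKR1B10 and the AKR1C genes are known as targets of NRF2, the transcription factor of the oxidative stress response, and are often high in squamous cell carcinomas.

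The values are TPM, which scale each transcript by its length and each library to the same total, so levels of different genes can be set side by side within a library. PRMT5 was 29.3 and 33.6 TPM in the shPRMT5 libraries, against 143 and 126 TPM in the shGFP libraries (limma adjusted p = 9.74e-09). TP63 was 152, 160.4 and 168 TPM in the ΔNp63α libraries, against 138, 82.3 and 97.3 TPM in the vector libraries (limma adjusted p = 0.03, with a range over the alternatives that reached 0.101). PRMT5 stood at 131, 97.0 and 118 TPM in the ΔNp63α libraries, against 95.4, 61.1 and 68.6 TPM in the vector libraries. It was called higher there (log2 difference 0.63, limma adjusted p = 0.0325). That call was lost in several alternatives, among them without ΔNp63α replicate 1 (adjusted p = 0.117). Under the hairpin the median of all genes tested lay at a log2 difference of 0.25, so the members' differences in that experiment are also given relative to this median. Relative to it AKR1B15 lay at 1.01, AKR1C3 at 0.61, AKR1C1 at -0.03 and AKR1B1 at -0.42, and the remaining members are given below. Differences of genes outside the family include this shift. All 9 squamous epithelial markers were listed in both tables, with summed levels of 7289 to 7542 TPM in shPRMT5 and 5866 to 6755 TPM in shGFP cells, and of 18408 to 33029 TPM in ΔNp63α and 7039.8 to 12548 TPM in vector cells. Of 6 fibroblast markers, 3 were listed (COL1A2, DCN and PDGFRA were not), with sums of 9.07 to 11.4 TPM in shPRMT5 and 6.46 to 8.44 TPM in shGFP cells, and of 42.4 to 61.9 TPM in ΔNp63α and 29.7 to 38.3 TPM in vector cells. The leukocyte markers PTPRC and CD3E and the endothelial markers CDH5 and KDR were listed in neither table. The epithelial and fibroblast sums stood higher in the same groups as AKR1B10, though not all their genes did, and their part in the AKR1 values was not tested. In the knockdown, 4 of the 9 epithelial markers were called higher and 0 lower, and KRT14 and KRT6A had log2 differences of -0.23 and -0.25 (not called). Over all genes tested, 15.1% were called higher and 3.48% lower there. Under ΔNp63α 4 were called higher, among them TP63, the overexpressed gene, and CDH1 was called lower (log2 difference -0.68). Over all genes tested, 7.34% were called higher and 14.1% lower under ΔNp63α. Of the fibroblast markers LUM was called higher under ΔNp63α (0.97) while COL1A1 had a log2 difference of 0.10 (not called). In bulk RNA, a change in the number of cells that express a gene and a change of RNA per cell cannot be told apart.

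AKR1B10, which reduces retinal to retinol, was the member with the widest difference in both experiments. It stood at 279.7 and 237 TPM in the shPRMT5 libraries, against 52.8 and 90.1 TPM in the shGFP libraries. Both shPRMT5 libraries lay above both shGFP libraries, and the means were 258 ± 30.5 and 71.4 ± 26.4 TPM (SD, n = 2 each), a ratio of 3.61. The shGFP libraries differed from each other more than the shPRMT5 libraries did in relative terms, and the log2 difference of 1.88 (SE 0.19) became 1.50 without shGFP replicate 1 and 2.26 without shGFP replicate 2. Relative to the median of all genes the log2 difference was 1.64.

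In the overexpression experiment AKR1B10 stood at 884, 884 and 927 TPM in the ΔNp63α libraries, against 179, 197 and 180.3 TPM in the vector libraries. The groups lay far apart and each was tight, with means of 898 ± 24.5 and 185 ± 9.77 TPM (SD, n = 3 each), a ratio of 4.84 and a log2 difference of 2.27 (SE 0.13). AKR1B10 was thereby among the most abundant transcripts of ΔNp63α cells, at percentile 99.1 to 99.2 of the genes listed, against 95.4 to 96.4 in vector cells. In the knockdown table its percentile was 95.5 to 96.3 in shPRMT5 and 84.0 to 89.6 in shGFP cells. The tables were normalized separately, so a level in one is not set against a level in the other.

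**Figure D1:**
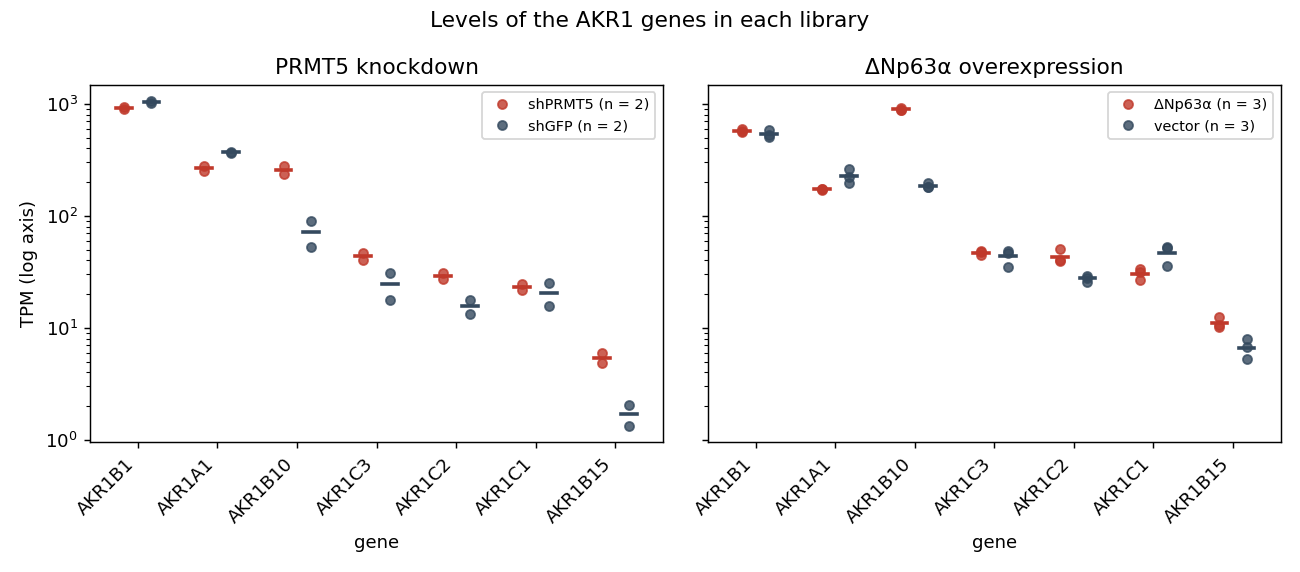
TPM of the 7 AKR1 genes in each library on a log axis, with the PRMT5 knockdown and the ΔNp63α overexpression in separate panels points for single libraries and short lines for group means. AKR1B10 lies at 237 to 279.7 TPM in shPRMT5 and 52.8 to 90.1 TPM in shGFP libraries, and at 884 to 927 TPM in ΔNp63α and 179 to 197 TPM in vector libraries.

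AKR1B15, the closest relative of AKR1B10 and its neighbour on chromosome 7, was called higher in both experiments at far lower levels. It stood at 5.94 and 4.89 TPM in the shPRMT5 libraries, against 1.33 and 2.06 TPM in the shGFP libraries. The groups did not overlap, and the log2 difference of 1.26 (SE 0.28) passed the test (limma adjusted p = 0.00375) and all 10 alternatives that tested it. In ΔNp63α libraries it stood at 12.4, 10.2 and 10.7 TPM, against 7.95, 6.79 and 5.25 TPM in vector libraries. These groups did not overlap either, and the log2 difference was 0.67 (SE 0.19, limma adjusted p = 0.0276). This call was lost without ΔNp63α replicate 1, without ΔNp63α replicate 3 or without vector replicate 3 (adjusted p = 0.0811, 0.0824 and 0.135).

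AKR1B15 amounted to 2.07% to 2.13% of the AKR1B10 level in shPRMT5 and 2.28% to 2.53% in shGFP cells, and to 1.15% to 1.41% in ΔNp63α and 2.91% to 4.43% in vector cells. AKR1B10P1, a pseudogene derived from AKR1B10 and no member of the group, stood at 0.744 and 0.430 TPM in shPRMT5 against 0.0766 and 0.103 TPM in shGFP libraries, and at 4.54, 5.36 and 6.78 TPM in ΔNp63α against 0.503, 1.21 and 0.199 TPM in vector libraries. The transcripts of AKR1B10, AKR1B15 and AKR1B10P1 are closely similar. The sources used here do not give how reads that match more than 1 of them were assigned, so the small values beside AKR1B10 are uncertain.

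AKR1B1, the aldose reductase that turns glucose into sorbitol, was the most abundant member in shPRMT5, shGFP and vector cells. It stood at 938 and 893 TPM in the shPRMT5 libraries, against 1009 and 1056 TPM in the shGFP libraries. The groups did not overlap, but the log2 difference of -0.17 (SE 0.13) did not pass the test (limma adjusted p = 0.352). In ΔNp63α libraries it stood at 574, 594 and 556 TPM, against 504, 579.8 and 525 TPM in vector libraries. These groups overlapped, with a log2 difference of 0.10 (SE 0.13, limma adjusted p = 0.625). The ratio of AKR1B10 to AKR1B1, 2 members that lie near each other on chromosome 7, was 0.265 to 0.298 in shPRMT5 and 0.0523 to 0.0854 in shGFP cells. It was 1.49 to 1.67 in ΔNp63α and 0.339 to 0.356 in vector cells, so AKR1B10 stood above AKR1B1 in each ΔNp63α library and below it in each of the other libraries.

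AKR1A1, the aldehyde reductase, which acts on glucuronate and other small aldehydes, fell in the knockdown. It stood at 279 and 253 TPM in the shPRMT5 libraries, against 367 and 369 TPM in the shGFP libraries. The groups did not overlap, and the log2 difference was -0.47 (SE 0.14, limma adjusted p = 0.0251), or -0.72 relative to the median of all genes. The call was kept in 7 of 11 alternatives. It was lost with no filter (adjusted p = 0.0582) and with no intensity trend (adjusted p = 0.14). It was also lost without shPRMT5 replicate 1 or without shPRMT5 replicate 2 (log2 difference -0.54 and -0.40). In ΔNp63α libraries AKR1A1 stood at 169, 175 and 173 TPM, against 198, 262 and 221 TPM in vector libraries. All ΔNp63α libraries lay below all vector libraries, with a log2 difference of -0.39 (SE 0.14) that did not pass the test (limma adjusted p = 0.0777) but did so without vector replicate 1 (adjusted p = 0.0292).

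The AKR1C genes lie side by side on chromosome 10. Their starts are shown because the results on AKR1C1 and AKR1C2 turn on 2 genes of nearly the same sequence. The windows run from 250 bases before to 50 bases after the annotated start, from RefSeq on GRCh38.p14, at chr10:4963165-4963464 on the plus strand for AKR1C1 and chr10:5003808-5004107 on the minus strand for AKR1C2. Capitals mark the bases that differ and those present in AKR1C1 only.
AKR1C1: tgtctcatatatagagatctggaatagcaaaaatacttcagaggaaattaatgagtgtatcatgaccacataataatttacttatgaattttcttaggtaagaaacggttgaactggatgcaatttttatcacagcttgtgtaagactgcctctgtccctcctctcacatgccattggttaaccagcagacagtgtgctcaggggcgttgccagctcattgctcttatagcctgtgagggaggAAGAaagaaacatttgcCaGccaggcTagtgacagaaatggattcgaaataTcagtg
AKR1C2: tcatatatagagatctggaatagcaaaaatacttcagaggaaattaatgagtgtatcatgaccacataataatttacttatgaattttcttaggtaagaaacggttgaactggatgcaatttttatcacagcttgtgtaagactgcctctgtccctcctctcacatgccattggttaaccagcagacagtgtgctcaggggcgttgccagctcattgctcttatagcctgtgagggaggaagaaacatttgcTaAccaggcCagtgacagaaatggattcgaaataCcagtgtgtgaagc
The windows aligned over 292 bases, of which 288 (98.6%) were identical, 4 differed and 4 further bases stood in AKR1C1 alone. The differences fall in the last part of the windows, near the start, and not in the long upstream stretch. AKR1C3, for which RefSeq gives 2 windows, was 77.7% to 80.6% identical to AKR1C1 and AKR1C2.

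AKR1C1, AKR1C2 and AKR1C3 did not move as a block. AKR1C2, which inactivates dihydrotestosterone, rose in both experiments. It stood at 27.2 and 30.9 TPM in the shPRMT5 libraries, against 13.3 and 17.8 TPM in the shGFP libraries. The groups did not overlap, and the log2 difference was 0.87 (SE 0.22, limma adjusted p = 0.0082), or 0.62 relative to the median of all genes. The call was kept in 7 of 11 alternatives. It was lost on median-of-ratios rescaling (log2 difference 0.60, adjusted p = 0.0678) and on quantile normalization (0.60, adjusted p = 0.0809). It was also lost without shPRMT5 replicate 1 or without shPRMT5 replicate 2 (log2 difference 0.96 and 0.78). In ΔNp63α libraries AKR1C2 stood at 50.1, 39.3 and 40.4 TPM, against 25.9, 28.1 and 28.9 TPM in vector libraries. Again the groups did not overlap, with a log2 difference of 0.62 (SE 0.16, limma adjusted p = 0.0159). Leaving out ΔNp63α replicate 1 or ΔNp63α replicate 3 gave an adjusted p of 0.0538 in each case.

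AKR1C1, which inactivates progesterone, stood at 21.8 and 24.4 TPM in the shPRMT5 libraries, against 15.7 and 24.9 TPM in the shGFP libraries. The groups overlapped, and the log2 difference of 0.21 (SE 0.23) did not pass the test (limma adjusted p = 0.534) and turned to -0.06 on rescaling. In ΔNp63α libraries AKR1C1 stood at 31.2, 33.5 and 26.9 TPM, against 35.4, 51.4 and 52.5 TPM in vector libraries. Here the ΔNp63α libraries lay below all vector libraries, vector replicate 1 being nearest to them, and the log2 difference was -0.57 (SE 0.18, limma adjusted p = 0.0446). That call was close to the threshold and was lost in 9 of 13 alternatives, among them rescaling (adjusted p = 0.106) and the omission of each ΔNp63α library, of vector replicate 2 or of vector replicate 3 (adjusted p = 0.0612 to 0.184).

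AKR1C3, which forms testosterone and prostaglandin F, stood at 46.8 and 40.5 TPM in the shPRMT5 libraries, against 17.7 and 31.2 TPM in the shGFP libraries. The groups did not overlap, and the log2 difference was 0.86 (SE 0.22, limma adjusted p = 0.0098). The call was lost in 7 of 11 alternatives, among them rescaling (adjusted p = 0.108), without shPRMT5 replicate 1 (0.126), without shPRMT5 replicate 2 (0.0992) and without shGFP replicate 1 (log2 difference 0.47, adjusted p = 0.0518). In ΔNp63α libraries it stood at 47.9, 48.8 and 44.3 TPM, against 34.9, 48.8 and 46.6 TPM in vector libraries. These groups overlapped (log2 difference 0.12, SE 0.17, limma adjusted p = 0.64).

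The ratio of AKR1C2 to AKR1C1 is free of the scaling of a library, since both values come from the same one. It was 1.24 and 1.26 in the shPRMT5 libraries, against 0.850 and 0.716 in the shGFP libraries. In ΔNp63α libraries it was 1.61, 1.17 and 1.50, against 0.732, 0.547 and 0.550 in vector libraries. AKR1C2 thus stood above AKR1C1 in each shPRMT5 and ΔNp63α library and below it in each shGFP and vector library. The ratio was singled out after its values were seen and carries no test. The ratio of AKR1C3 to AKR1C1 was 1.66 to 2.14 in shPRMT5 and 1.13 to 1.25 in shGFP cells, and 1.46 to 1.65 in ΔNp63α and 0.886 to 0.988 in vector cells. Since AKR1C1 and AKR1C2 are nearly identical along their transcripts too, reads could be split between them, and the sources used here do not give how such reads were assigned.

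**Figure D2:**
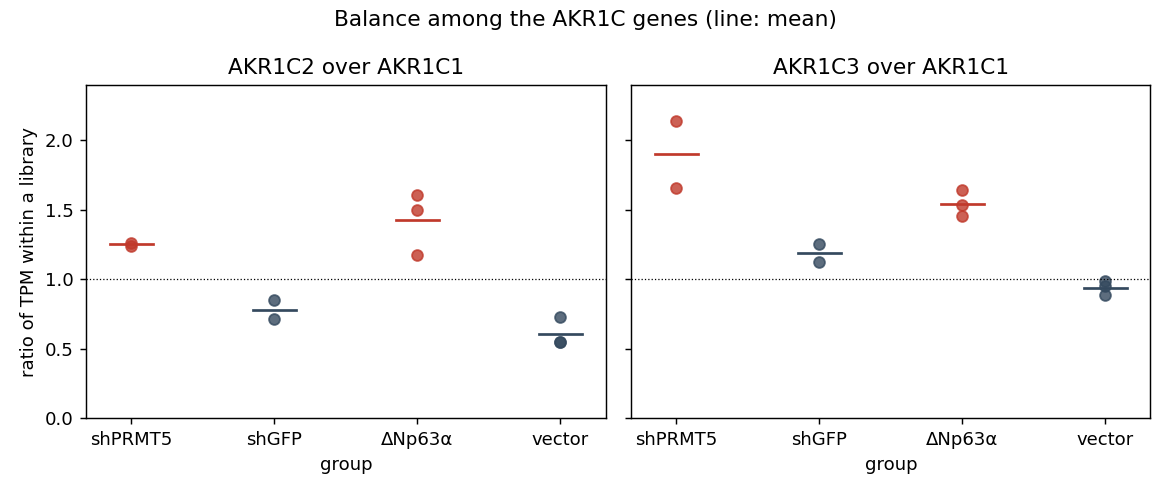
Ratio of AKR1C2 to AKR1C1 TPM (left) and of AKR1C3 to AKR1C1 TPM (right) by group, with 1 point a library, a short line at the group mean and a dotted line at equal levels. For AKR1C2 the shPRMT5 and ΔNp63α libraries lie at 1.17 to 1.61, above the line, and the shGFP and vector libraries at 0.547 to 0.850, under it.

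Motifs were searched on both strands of the 300-base windows of AKR1A1, AKR1B1, AKR1C1, AKR1C2, AKR1C3 and AKR1E2, 9 windows in all. They were, in this order, the core of the antioxidant response element bound by NRF2 (TGACNNNGC), the AP-1 site (TGANTCA), which can overlap it, and the 10-base unit of the p63 response element, of which a full site holds a pair. None of the 9 windows held a match, while 13.3%, 7.71% and 6.63% of the 35116 windows of all genes held the first, the second and the third motif. These letters are thus absent from these windows, and nothing follows about sites elsewhere. AKR1B10 and AKR1B15 had no window in the RefSeq set used here and were not searched. The 9 windows are not independent, since those of AKR1C1 and AKR1C2 are nearly identical. The windows of AKR1B1 overlap each other, as do those of AKR1E2.

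Summed over the 7 genes, AKR1 transcripts came to 1484 to 1597 TPM in shPRMT5 and 1476 to 1591 TPM in shGFP cells, ranges that overlap. They came to 1769 to 1784 TPM in ΔNp63α and 985 to 1173 TPM in vector cells, which do not. AKR1B10 made up 15.9% to 17.5% of the sum in shPRMT5 and 3.57% to 5.66% in shGFP cells, and 49.5% to 52.1% in ΔNp63α and 16.8% to 18.2% in vector cells. AKR1B1 made up 58.7% to 60.2% in shPRMT5 and 66.3% to 68.3% in shGFP cells, and 31.3% to 33.3% in ΔNp63α and 49.4% to 51.1% in vector cells. The make-up of the AKR1 sum thus differed in the knockdown with no separation of its size, whereas both differed under ΔNp63α. AKR1B10, picked for its rise, is part of the sum and of every share, so these values say nothing separate about the other members. AKR1B1 itself was not called in either experiment (limma adjusted p = 0.352 and 0.625). The 3 AKR1C genes together came to 95.8 TPM in each shPRMT5 library against 46.7 and 74.0 TPM in the shGFP libraries, and to 112 to 129 TPM in ΔNp63α against 96.2 to 128 TPM in vector cells.

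**Figure D3:**
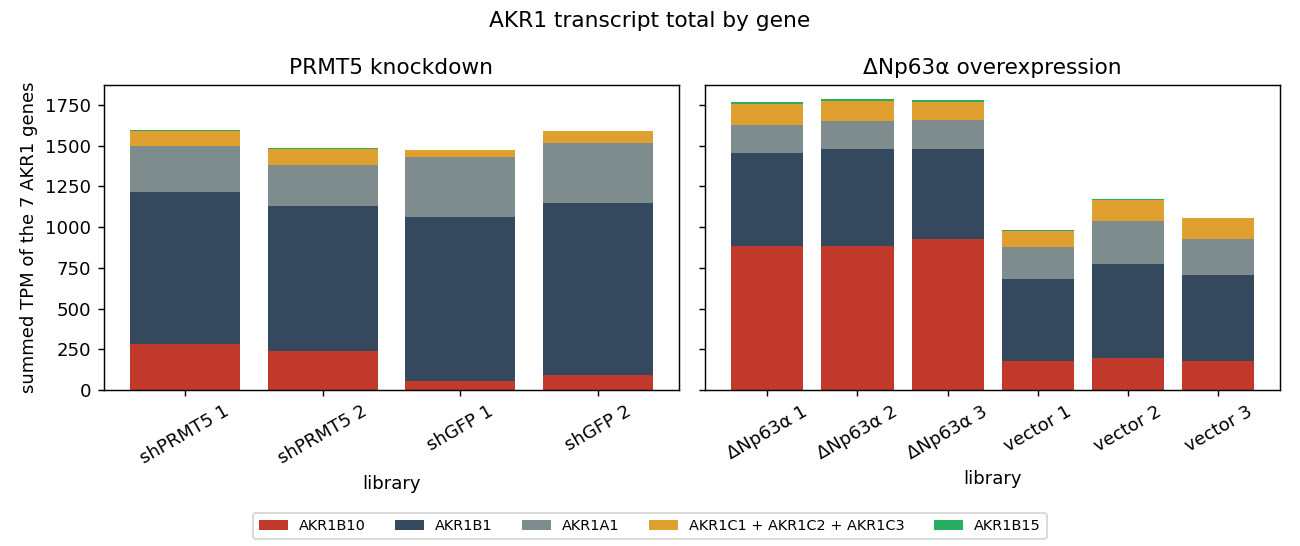
Summed TPM of the 7 AKR1 genes (y axis, from 0) in each library as stacked bars, with AKR1B10 lowest in the stack, then AKR1B1, AKR1A1, the 3 AKR1C genes together and AKR1B15. AKR1B10 takes 15.9% to 17.5% in shPRMT5 and 3.57% to 5.66% in shGFP libraries, and 49.5% to 52.1% in ΔNp63α and 16.8% to 18.2% in vector libraries.

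The order of levels within a group was AKR1B1, AKR1A1, AKR1B10, AKR1C3, AKR1C2, AKR1C1 and AKR1B15 in shPRMT5 cells, where AKR1A1 and AKR1B10 overlapped and the other neighbours did not. In shGFP cells it was AKR1B1, AKR1A1, AKR1B10, AKR1C3, AKR1C1, AKR1C2 and AKR1B15, and the 3 AKR1C genes overlapped with their neighbours among themselves. In ΔNp63α cells AKR1B10 led, before AKR1B1, AKR1A1, AKR1C3, AKR1C2, AKR1C1 and AKR1B15, and the AKR1C3 and AKR1C2 values overlapped. In vector cells the order was AKR1B1, AKR1A1, AKR1B10, AKR1C1, AKR1C3, AKR1C2 and AKR1B15, with AKR1C1 and AKR1C3 overlapping. AKR1B15 was last in all 4 groups.

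All 7 members passed the filter on low values in both experiments. In the knockdown 4 were called higher, 1 lower and 2 not at all, where 18.6% of all 12635 genes tested were called, 15.1% higher and 3.48% lower. AKR1B10, picked for its direction, is among the 4, and 3 of the other 6 were called higher. The median log2 difference was 0.54 over these 6 (0.86 with AKR1B10), against 0.25 over all genes. In 4 members both shPRMT5 libraries lay above both shGFP libraries (49.0% of all genes tested) and in 2 both lay below (14.0%). Without the shift of the whole table, on median-of-ratios rescaling, 457 genes were called higher and 868 lower in place of 1904 and 440, and 2 members higher in place of 4. These 2 were AKR1B10, picked for its direction, and AKR1B15, whose small values are uncertain beside AKR1B10.

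Under ΔNp63α 3 members were called higher, 1 lower and 3 not at all, where 21.5% of all 13382 genes tested were called, 7.34% higher and 14.1% lower. Leaving out AKR1B10, 2 of 6 were called higher. The median log2 difference was 0.11 over these 6 (0.12 with AKR1B10), against -0.04 over all genes. In 3 members all ΔNp63α libraries lay above all vector libraries (14.2% of all genes tested) and in 2 all lay below (23.7%). On rescaling, 1495 genes were called higher and 1692 lower in place of 982 and 1893, and no member was called lower. The number of members called higher was 1 without ΔNp63α replicate 1 and 1 without ΔNp63α replicate 3. In both cases that member was AKR1B10, picked for its rise, and none of the other members was called higher.

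**Figure D4:**
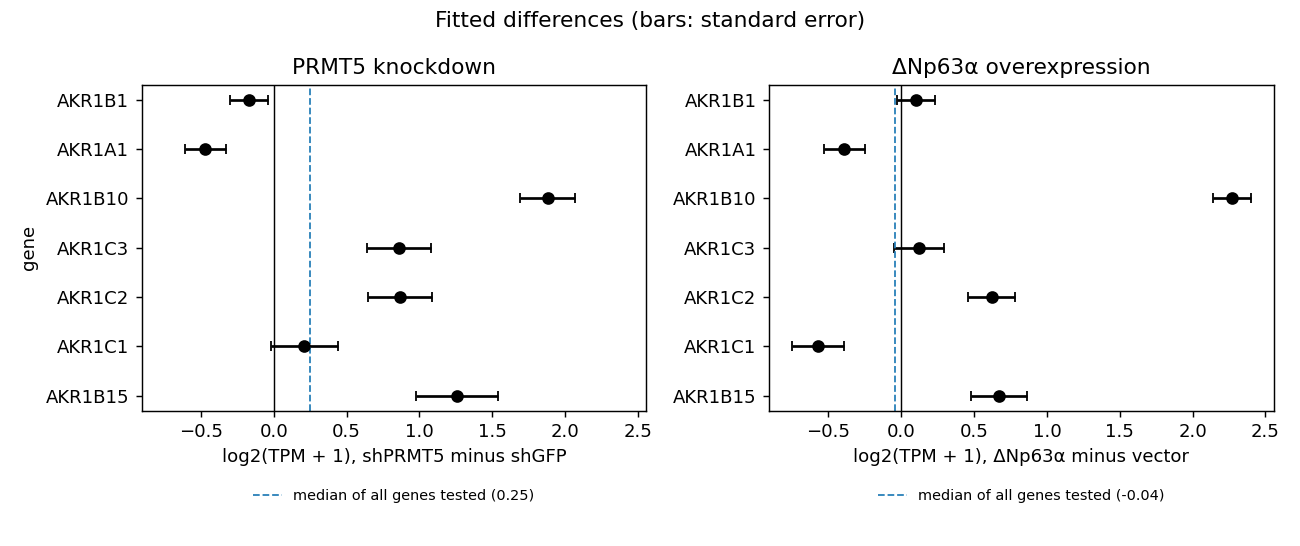
Fitted differences of log2(TPM + 1) for each AKR1 gene, shPRMT5 minus shGFP and ΔNp63α minus vector, with bars for the standard error and a dashed line at the median of all genes tested. AKR1B10 lies at 1.88 and 2.27, AKR1B15 at 1.26 and 0.67, AKR1C2 at 0.87 and 0.62, and AKR1A1 at -0.47 and -0.39.

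Across the 10 libraries, each centred on the mean of its own table, AKR1B10 went with AKR1C2 (Pearson r = 0.926) and AKR1B15 (r = 0.891) and against AKR1A1 (r = -0.861). It went less closely with AKR1C3 (r = 0.631), and AKR1C1 (r = -0.386) and AKR1B1 (r = 0.071) stood apart from it. AKR1C1 and AKR1C2 had an r of -0.126. These values describe 10 libraries that share 2 group contrasts and the scaling of each library.

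By the same measure over 11998 genes, the 6 named genes whose pattern was most like that of AKR1B10 were GPAT3 (r = 0.987), DHRS2 (0.985), RPA2 (0.984), REEP1 (0.984), FABP4 (0.983) and HIST1H2AC (0.975). Genes whose symbol is only a clone, locus, open reading frame or similar number were passed over in this ranking. FABP4, a fatty acid carrier, stood at 47.8 and 44.4 TPM in shPRMT5 libraries, against 7.80 and 9.72 TPM in shGFP libraries. It stood at 1810.1, 2780.0 and 2340.5 TPM in ΔNp63α libraries, against 337, 499 and 397 TPM in vector libraries. Like AKR1B10, it separated the groups in both experiments. DHRS2, a short-chain dehydrogenase and so another carbonyl reductase, averaged 10.02 ± 0.383 TPM in shPRMT5 and 4.04 ± 0.533 TPM in shGFP cells (SD, n = 2 each), and 11.9 ± 0.839 TPM in ΔNp63α and 3.87 ± 0.489 TPM in vector cells (SD, n = 3 each). GPAT3, which starts triglyceride synthesis, averaged 7.22 ± 0.532 TPM in shPRMT5 and 3.27 ± 0.684 TPM in shGFP cells (SD, n = 2 each), and 28.7 ± 2.39 TPM in ΔNp63α and 9.53 ± 0.476 TPM in vector cells (SD, n = 3 each). These genes were picked for their likeness and were not tested for it.

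Other aldo-keto reductases, the AKR7 enzymes and potassium channel beta subunits among them, gave no call in either experiment by limma, and none of their 3 tested genes had an unadjusted p under the same threshold. AKR7A3, the gene of smallest p in the knockdown, had a log2 difference of 0.65 (limma adjusted p = 0.177). Without shGFP replicate 1, 2 genes of the list, AKR7A3 among them (adjusted p = 0.0238), were called higher. KCNAB2 was the gene of smallest p under ΔNp63α, with -0.32 (limma adjusted p = 0.235).

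NRF2 and its regulators were followed because AKR1B10 and the AKR1C genes are among its known targets. NFE2L2, the gene of NRF2, averaged 7.27 ± 0.809 TPM in shPRMT5 and 3.65 ± 0.660 TPM in shGFP cells (SD, n = 2 each), a log2 difference of 0.84 (limma adjusted p = 0.0303). KEAP1, which marks NRF2 for destruction, averaged 242 ± 8.48 TPM in shPRMT5 and 141 ± 23.4 TPM in shGFP cells (SD, n = 2 each), a log2 difference of 0.78 (limma adjusted p = 0.00169). MAFG, a partner of NRF2 on DNA, also rose (0.61, limma adjusted p = 0.02). These 3 of 10 tested rose and 0 fell, where 15.1% of all genes were called higher and 3.48% lower. None of the 3 was called on rescaling, where 2 others of the list were called lower. Over all 12603 genes tested there, 457 were called higher and 868 lower. The 3 calls were also lost with either shPRMT5 library left out, which leaves 1 library in that group. Under ΔNp63α, NFE2L2 was not called (limma adjusted p = 0.889), RBX1 rose (log2 difference 0.59, limma adjusted p = 0.0262) and MAFF fell (-1.15, limma adjusted p = 0.00229), 1 of 10 each, where 7.34% of all genes were called higher and 14.1% lower. The RBX1 call was lost without ΔNp63α replicate 2 (adjusted p = 0.0977), ΔNp63α replicate 3 (0.0561) or vector replicate 3 (0.119).

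Of the NRF2 targets outside AKR1, 13 of 32 rose and 0 fell in the knockdown, where 15.1% of all genes were called higher and 3.48% lower. On rescaling 5 rose and 0 fell, where 457 of all 12603 genes tested were called higher and 868 lower. Fewer targets also rose with either shPRMT5 library left out, which leaves 1 library in that group. An unadjusted limma p under the threshold was found for 16, and the median log2 difference was 0.40 against 0.25 over all genes. ABCC2, an efflux pump for conjugates, stood at 11.9 and 12.9 TPM in shPRMT5 libraries, against 1.99 and 1.44 TPM in shGFP libraries (log2 difference 2.31, limma adjusted p = 1.49e-06), and kept its call in every alternative. ME1, a source of NADPH, had a log2 difference of 1.18 (limma adjusted p = 0.000244) and SLC7A11, the cystine importer, one of 1.08 (limma adjusted p = 0.00693). Without shPRMT5 replicate 2, ME1 and SLC7A11 were not called (adjusted p = 0.0858 and 0.212).

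Under ΔNp63α, 4 of 31 NRF2 targets rose and 5 fell, where 7.34% of all genes were called higher and 14.1% lower, and the median log2 difference was -0.02 against -0.04 over all genes. The number that rose was 2 without ΔNp63α replicate 1 or without vector replicate 3, and 0 without ΔNp63α replicate 2 or without ΔNp63α replicate 3. Calls higher over all genes numbered 791, 426, 567 and 417 in these settings, in place of 982. SLC7A11 rose (log2 difference 0.83, limma adjusted p = 0.0142), as in the knockdown, and the call was lost without ΔNp63α replicate 2 or ΔNp63α replicate 3 (adjusted p = 0.0517 and 0.0682). CYP4F11 (-1.37, limma adjusted p = 0.000154) and OSGIN1 (-0.79, limma adjusted p = 0.00885) fell. ABCC2 stood at 8.75, 12.9 and 13.9 TPM in ΔNp63α libraries, against 21.7, 15.4 and 24.3 TPM in vector libraries, and fell (log2 difference -0.74, limma adjusted p = 0.0323). Whether the lists' counts differ between the experiments was not tested.

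**Figure D5:**
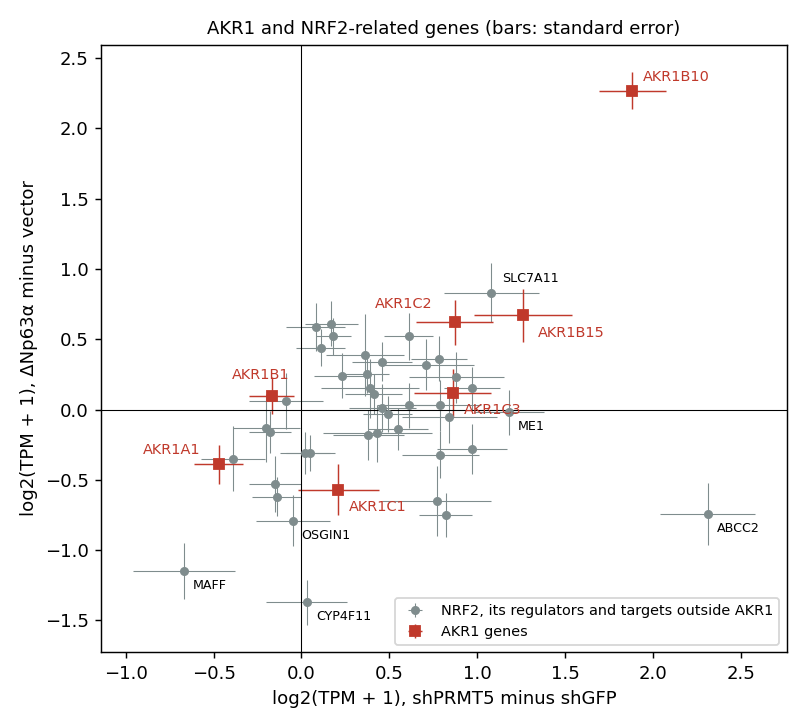
Difference of log2(TPM + 1) in shPRMT5 minus shGFP (x axis) against ΔNp63α minus vector (y axis) for the AKR1 genes (squares) and for NRF2, its regulators and its targets outside AKR1 (circles), with bars for the standard error. AKR1B10 lies at 1.88 and 2.27, SLC7A11 at 1.08 and 0.83, and ABCC2 at 2.31 and -0.74.

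Of the carbonyl reductases and aldehyde dehydrogenases, 5 of 21 rose and 0 fell in the knockdown, where 15.1% of all genes were called higher and 3.48% lower. None was called on rescaling, where 457 of all 12603 genes tested were called higher. Their calls were also lost with either shPRMT5 library left out, which leaves 1 library in that group. Among them were PTGR1, which reduces lipid aldehydes and prostaglandin ketones (log2 difference 0.73, limma adjusted p = 0.00912), and SORD, the enzyme after AKR1B1 in the sorbitol pathway (0.65, limma adjusted p = 0.0225). Under ΔNp63α 2 of 22 rose and 3 fell (5 and 3 on rescaling), shares near those of all genes (7.34% higher and 14.1% lower). The number that rose was 1 without ΔNp63α replicate 3 and 6 without vector replicate 1. ALDH1A3, which oxidizes retinal to retinoic acid, stood at 8.75, 10.8 and 9.56 TPM in ΔNp63α libraries, against 46.1, 48.4 and 48.2 TPM in vector libraries (log2 difference -2.19, limma adjusted p = 3.87e-06). Its direction was opposite to that of AKR1B10, which draws on the same substrate.

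Among genes of retinoid handling, the pathway of that substrate, 0 of 12 rose and 2 fell in the knockdown, where 15.1% of all genes were called higher and 3.48% lower. They were DHRS3, another retinal reductase (log2 difference -1.11, limma adjusted p = 7.74e-05), and CRABP2, a retinoic acid carrier (-0.78, limma adjusted p = 0.00374). Without shPRMT5 replicate 2, CRABP2 was not called (adjusted p = 0.391). Under ΔNp63α 1 of 14 rose and 5 fell, where 7.34% of all genes were called higher and 14.1% lower. The 1 that rose was not called without any 1 of the ΔNp63α libraries, nor without vector replicate 2 or vector replicate 3. STRA6, the retinol importer, averaged 1.14 ± 0.365 TPM in ΔNp63α and 15.2 ± 4.25 TPM in vector cells (SD, n = 3 each; log2 difference -2.90, limma adjusted p = 9.48e-06). CYP26B1, which breaks down retinoic acid (-1.99, limma adjusted p = 4.84e-05), and CRABP2 (-1.66, limma adjusted p = 0.000927) fell as well.

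Of the other enzymes of steroids and prostaglandins, the substrates of the AKR1C genes, 1 of 18 rose and 2 fell in the knockdown, where 15.1% of all genes were called higher and 3.48% lower. None fell in the knockdown without shPRMT5 replicate 1 or without shPRMT5 replicate 2. Under ΔNp63α 1 of 20 rose and 2 fell, where 7.34% were called higher and 14.1% lower. HSD17B1, which forms estradiol, stood at 0.616 and 0.986 TPM in shPRMT5 against 1.33 and 4.48 TPM in shGFP libraries, and at 3.43, 7.38 and 6.74 TPM in ΔNp63α against 1.60, 1.67 and 1.01 TPM in vector libraries. It fell in the knockdown (limma adjusted p = 0.0396) and rose under ΔNp63α (log2 difference 1.45, limma adjusted p = 0.0024). The size of the knockdown difference rests on shGFP replicate 2, without which the gene did not reach the filter on low values. That call was lost in 6 of 9 alternatives, among them a pseudocount of 0.1 (adjusted p = 0.0519) and the omission of either shPRMT5 library (0.105 and 0.0584). PTGS2 (-1.34, limma adjusted p = 0.00203) and PTGS1 (-1.02, limma adjusted p = 0.00114), which start prostaglandin synthesis, fell under ΔNp63α.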

How the data were processed

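RNA-seq was analysed in 10 UM1 libraries. TPM values were deposited by the authors in a separate table for each experiment. The submitters' processing notes name GRCh37, hg19, FastQC, Bowtie, featureCounts and DESeq2 1.24.0 without a role, and the sources used here do not give the tool behind the TPM. The tables hold 0 values of zero, so genes with a zero in some library have no row. TPM keeps no absolute depth, so no counting interval can be given, and the precision rests on the replicates. The sample titles call the libraries biological replicates and do not say how the cultures were kept apart, so p-values measure the spread between such libraries of 1 cell line. Rows with no gene (2 and 1) were dropped, and 9 symbols per table that had become dates were restored from gene IDs.

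The fit kept genes whose mean TPM reached 1 (12635 in the knockdown, 13382 in the overexpression). Each table was fitted alone on log2(TPM + 1) with limma 3.58.1 in R 4.3.3 (two-sided, eBayes with an intensity trend). A call needs an adjusted p under 0.05 after Benjamini-Hochberg adjustment over all genes tested. This scale understates changes of low genes. Ratios without log2 are of mean TPM. The fit was also run on simulated data with independent errors and no shift of the whole table. The outcome is not given here, and that run does not bear on such a shift. Alternatives were a pseudocount of 0.1, a minimum mean TPM of 5 or none, a fit without the trend, quantile normalization, rescaling by the median of ratios, a replicate block and the omission of each library. The members and lists were chosen with earlier results of these data known. Named were all members, PRMT5 and TP63, up to 3 called genes of largest difference per list and experiment (or 1 of smallest p), and the 6 genes most correlated with AKR1B10. Symbols that are only a clone, locus or similar number were passed over among the last. NFE2L2 and ABCC2 under ΔNp63α and AKR1B10P1 were added after their values were seen. Promoter windows came from RefSeq (GRCh38.p14) and were aligned with Biopython 1.88. Tables were made with Python 3.11.15 and pandas 2.3.3, and figures with Matplotlib 3.10.9.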

Additional observations from a re-analysis of the deposited data

How the results depend on the processing

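AKR1B10 kept its direction in every alternative, with log2 differences of 1.50 to 2.26 in the knockdown (this range also holds when 1 library is left out) and 2.18 (quantile normalization) to 2.36 (rescaling) in the overexpression (2.25 to 2.31 with 1 library left out). The counts of called members were less stable, and AKR1B10, picked for its rise, is among those called higher in every alternative. In the knockdown, members called higher numbered 2 on rescaling, 2 on quantile normalization and 2 to 4 with 1 library left out, in place of 4. Members called lower numbered 0 with no filter or no intensity trend and 0 to 1 with 1 library left out, in place of 1. In the overexpression, members called higher numbered 1 to 3 with 1 library left out, in place of 3. Members called lower numbered 0 with no filter, rescaling, quantile normalization or no trend, 2 with the replicate block and 0 to 2 with 1 library left out, in place of 1.

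Genes of the related lists called higher in the knockdown numbered 22, and 11 with no filter, 5 on rescaling, 10 on quantile normalization, 10 with no trend and 1 to 32 with 1 library left out. Those called lower numbered 4, and 2 with no filter, 7 on rescaling, 2 with no trend and 1 to 4 with 1 library left out. In the overexpression those called higher numbered 9, and 16 with the replicate block and 2 to 17 with 1 library left out. Those called lower numbered 16, and 13 to 16 with 1 library left out. The sign turned for AKR1C1 in the knockdown (-0.06 on rescaling and on quantile normalization, -0.10 to 0.53 with 1 library left out), TP63 in the knockdown (-0.25, -0.20 and -0.19 to 0.23) and AKR1C3 in the overexpression (-0.02 to 0.21 with 1 library left out), none of them called. AKR1B10 was in place 3 of the AKR1 levels of shPRMT5 cells, or 2 to 3 with 1 library left out. The cause was not tested.

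Over all genes, calls higher and lower in the knockdown numbered 1904 and 440, and 756 and 237 with no filter, 457 and 868 on rescaling, 400 and 565 on quantile normalization, 950 and 203 with no trend. Without shPRMT5 replicate 1 they numbered 936 and 199, and without shPRMT5 replicate 2 170 and 154. Without shGFP replicate 2 they numbered 2385 and 716. In the overexpression they numbered 982 and 1893, and 1495 and 1692 on rescaling, 1527 and 1659 on quantile normalization, and 417 to 1431 and 1150 to 1947 with 1 library left out. Same-numbered samples of the groups deviated together with correlations of 0.087 in the knockdown and 0.086 to 0.324 in the overexpression. With 2 libraries a group the knockdown correlations can differ only in sign, so they cannot decide on pairing. The sample titles state no pairing, and the shared numbers were not read as pairs. With the replicate block the all-gene calls were 2856 and 630 in the knockdown and 1473 and 2416 in the overexpression. It added a call for AKR1A1 in the overexpression (adjusted p = 0.0299). In the overexpression 5 of 6 samples correlated best with their own number, a hint from the data and not from the design. Precision is limited by 2 and 3 libraries a group.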
